A study of Homo sapiens with 10 samples.

Results

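The genes described here encode the machinery that copies DNA in S phase, 43 genes chosen by name from the 78932 gene identifiers of the count table. They were grouped by role into 8 origin licensing genes, 12 genes of the replicative helicase and its activation, and 9 polymerase and primase genes. The rest were 6 genes of the sliding clamp and its loader, 3 genes of nucleotide supply and 5 genes that act on chromatin or histones at the fork. The rule that names them uses no measured value, but members, lists and tests were chosen when earlier results of these data were known. RNA was measured in cardiomyocytes differentiated from the established stem cell line H1, in 5 libraries after transfection with a GapmeR against the RNA called CLIPPER and in 5 after transfection with a control GapmeR, labelled WT. A GapmeR is a short antisense oligonucleotide that directs RNase H to cut the RNA it pairs with. Both groups received 50 nM on day 9 of differentiation, when the cells were beating, were kept in the same insulin-containing medium and were collected 48 hours later. The cells came from 1 line, and the labels do not say whether replicates are separate differentiations. If they are not, the p-values measure technical spread alone. The level of CLIPPER itself was not analysed here.

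Replication begins with licensing. The origin recognition complex, CDC6 and CDT1 load the MCM ring on DNA, and CDC45 and GINS then join it to form the active helicase. Polymerase alpha with primase starts each strand, replication factor C places the PCNA clamp, and polymerases epsilon and delta extend the leading and lagging strands. Many of these genes are induced together at the start of S phase by E2F factors, which the retinoblastoma protein holds back. Heart muscle cells largely leave the cell cycle as they mature, while young cardiomyocytes derived from stem cells can still enter S phase.

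Library totals lay between 32.9 and 45.1 in units of 1e6 counts, and all 43 genes passed the filter on low counts. Cardiomyocyte markers were present in every library, but their summed level was 9735 to 15944 CPM (counts per 1e6 on normalised library sizes) in knockdown and 25229 to 34651 CPM in control libraries, and 7 of the 8 fell. Of 9 smooth muscle and fibroblast markers 7 fell and 1 rose, with a sum of 1263 to 1701 CPM in knockdown and 1949 to 2836 CPM in control libraries. Of 7 pluripotency markers POU5F1, NANOG, SOX2 and PRDM14 stayed under 1 CPM in every library, PRDM14 at 0, while LIN28A rose 9.67-fold to 2.51 ± 0.373 CPM in knockdown, against 0.258 ± 0.166 CPM in control libraries, and DPPA4 rose 7.65-fold. The sum of the 7 was 3.87 to 6.15 CPM in knockdown and 0.942 to 1.70 CPM in control libraries. Of the other markers, 2 of 4 epicardial (sums of 1.73 to 3.38 CPM in knockdown and 4.11 to 5.43 CPM in control libraries) and 2 of 5 endothelial genes fell (8.24 to 16.3 CPM in knockdown and 29.3 to 49.9 CPM in control libraries), and 1 of 6 endoderm genes rose (10.8 to 19.8 CPM in knockdown and 5.44 to 6.93 CPM in control libraries). WT1, ALDH1A2, UPK3B, PECAM1, CDH5, VWF, SOX17, FOXA2, AFP, TTR and CDX2 were under 1 CPM in every library. Over all tested genes 40.1% rose and 39.6% fell, and the counts in these short marker lists were not tested against those shares. The part of these marker shifts in the results below was not tested.

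The replication genes did not move as one program. In the knockdown 9 rose, 21 fell and 13 did not pass edgeR's quasi-likelihood test at a Benjamini-Hochberg adjusted p below 0.05. The adjustment ran over all 21033 tested genes, of which 79.7% were called, 40.1% higher and 39.6% lower. All members are protein-coding, and of the 14777 tested protein-coding genes 34.7% rose and 47.0% fell. The share of members that rose, 20.9%, was below the coding background, and the share that fell, 48.8%, was near it. The median log2 fold change was -0.30 for the members, 0.01 for all tested genes and -0.22 for all tested protein-coding genes. The groups did not overlap in 25 of the 43 members, 7 of them higher and 18 lower. They did not overlap in 67.5% of all tested genes and in 10498 of the 14777 tested protein-coding genes. A change of at least 2-fold was called in 3 members upward and 13 downward, and in 48.6% of all tested genes in either direction. Among the 14777 tested protein-coding genes it was called in 2465 upward and 4148 downward. Upper-quartile scaling shifted all genes by 0.20 on the log2 scale and gave 16 members higher and 18 lower, with a median of -0.10. Over all tested genes it also called more higher and fewer lower. The direction of the small changes below is therefore relative to the bulk of genes, and in bulk RNA fewer cells in S phase and less RNA per cell cannot be told apart.

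Most complexes held subunits of opposite or unequal change. CDT1 rose 3.43-fold, CDCA7 3.23-fold and PCNA 2.47-fold, while POLA1 fell 5.28-fold, PRIM2 4.52-fold and GINS1 3.77-fold. Summed over members, the level was 1078 ± 72.2 CPM in knockdown and 1043 ± 87.7 CPM in control libraries (SD, n = 5 each), a difference smaller than either SD. The polymerase and primase genes summed to 146 to 158 CPM in knockdown and 180 to 207 CPM in control libraries, without overlap. The origin licensing genes summed to 149 to 168 CPM in knockdown and 130 to 146 CPM in control libraries, higher without overlap although 4 of the 8 fell. The clamp and clamp loader genes summed to 153 to 210 CPM in knockdown and 110 to 139 CPM in control libraries, a difference carried by PCNA. RFC1 to RFC5 alone summed to 85.0 ± 5.56 CPM in knockdown and 86.5 ± 7.83 CPM in control libraries (SD, n = 5 each). The helicase genes summed to 341 to 360 CPM in knockdown and 326 to 450 CPM in control libraries, which overlapped.

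**Figure D1:**
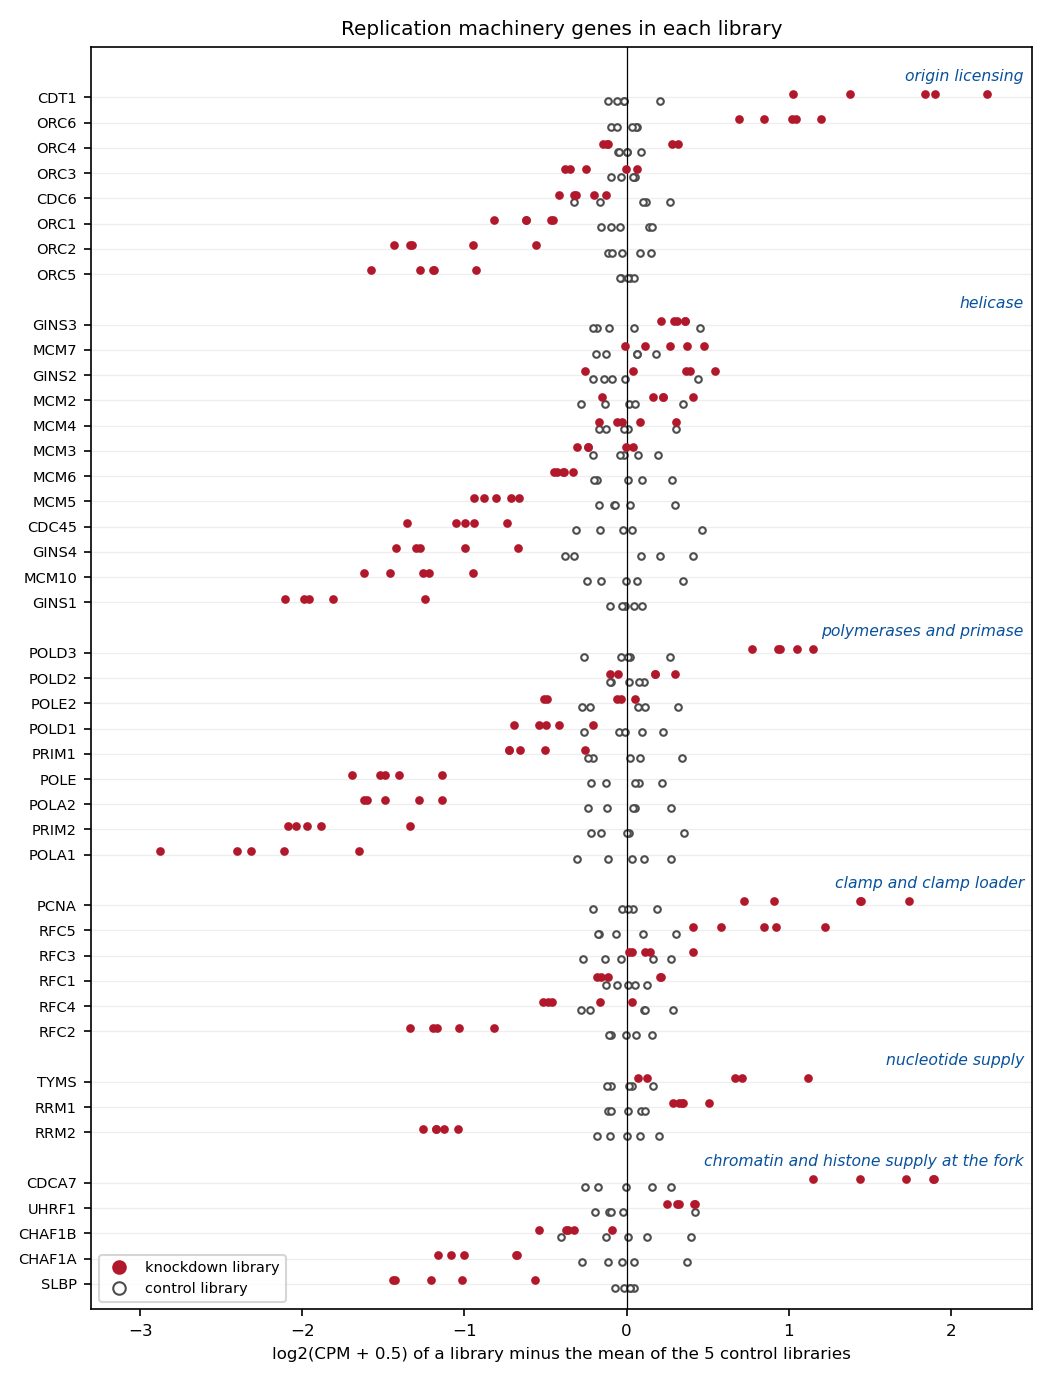
Each row is a gene and each point a library, placed by its log2(CPM + 0.5) minus the mean of the 5 control libraries, with knockdown libraries filled and control libraries open. CDT1, CDCA7 and PCNA lie to the right of all their controls, POLA1, PRIM2 and GINS1 to the left, and MCM2, MCM3, MCM4 and MCM7 lie near 0 with their groups overlapping.

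Promoters of 6 members are printed to show exact matches to a few words of the E2F type. CDT1, CDCA7, POLA1 and GINS1 hold such a match and PCNA and RRM2 do not. Sites that differ from these words were not searched, so a promoter without a match may still hold an E2F site. They are RefSeq sequences on GRCh38.p14, 200 bases before to 20 bases after the annotated start, read 5′ to 3′ on the strand of the gene. The words searched were TTTCCCGC, TTTCGCGC, TTTGCCGC and TTTGGCGC on both strands, and capitals mark a match. The regions are chr16:88803589-88803808 (plus strand) for CDT1, chr2:173354672-173354891 (plus) for CDCA7, chr20:5119939-5120158 (minus) for PCNA, chrX:24693718-24693937 (plus) for POLA1, chr20:25407473-25407692 (plus) for GINS1 and chr2:10122539-10122758 (plus) for RRM2. The first 3 genes rose and the last 3 fell.
CDT1: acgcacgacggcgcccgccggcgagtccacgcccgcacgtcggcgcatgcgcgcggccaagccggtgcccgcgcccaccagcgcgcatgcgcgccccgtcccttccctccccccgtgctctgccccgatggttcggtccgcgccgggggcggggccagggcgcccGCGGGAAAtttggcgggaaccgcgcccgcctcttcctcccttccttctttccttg
CDCA7: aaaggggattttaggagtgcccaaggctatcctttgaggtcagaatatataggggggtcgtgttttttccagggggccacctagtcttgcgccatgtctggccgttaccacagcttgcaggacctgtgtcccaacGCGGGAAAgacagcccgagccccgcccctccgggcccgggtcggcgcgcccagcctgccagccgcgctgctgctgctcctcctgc
PCNA: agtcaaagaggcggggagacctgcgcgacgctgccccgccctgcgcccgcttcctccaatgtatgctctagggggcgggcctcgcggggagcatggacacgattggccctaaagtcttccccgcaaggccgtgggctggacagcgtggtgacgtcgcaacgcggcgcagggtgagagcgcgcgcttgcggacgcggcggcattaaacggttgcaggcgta
POLA1: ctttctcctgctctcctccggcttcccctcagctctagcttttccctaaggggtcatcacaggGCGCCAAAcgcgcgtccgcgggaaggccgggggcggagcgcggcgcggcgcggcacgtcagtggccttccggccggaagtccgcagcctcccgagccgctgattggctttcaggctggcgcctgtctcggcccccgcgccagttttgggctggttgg
GINS1: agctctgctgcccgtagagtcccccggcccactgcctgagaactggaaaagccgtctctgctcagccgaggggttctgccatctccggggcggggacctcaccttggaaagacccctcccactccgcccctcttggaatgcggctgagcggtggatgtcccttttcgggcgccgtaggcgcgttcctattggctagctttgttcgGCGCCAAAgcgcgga
RRM2: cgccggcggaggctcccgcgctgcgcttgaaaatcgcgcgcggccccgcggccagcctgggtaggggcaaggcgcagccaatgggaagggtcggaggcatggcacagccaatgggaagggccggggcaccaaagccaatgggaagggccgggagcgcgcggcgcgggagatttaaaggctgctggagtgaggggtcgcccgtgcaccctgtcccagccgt

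Of the 43 members 39 had a promoter in the RefSeq table, and 18 of these (46.2%) held an E2F word in the 300 bases from 250 before to 50 after the start. The same held for 3.3% of all 35116 promoters listed there, and of 11732 tested protein-coding genes, at 1 promoter a gene, 5.23%. The word was found in 4 of 8 members that rose, in 6 of 19 that fell and in 8 of 12 that did not pass. Its first base lay at -35 from the start in CDT1, -65 in CDCA7, -137 in POLA1 and 6 in GINS1. The CCAAT box, which NF-Y binds, searched as CCAAT on both strands, was in 23 of the 39 (59.0%), against 34.6% of all promoters. Both kinds of match overlapped in MCM7 and in no other member. A match is a description of letters and not a measured site.

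Licensing genes split between CDT1 and ORC6, which rose, and ORC1, ORC2, ORC5 and CDC6, which fell. CDT1 (ENSG00000167513, chromosome 16, 88803789 to 88809258, plus strand, GRCh38), the loading factor that geminin inhibits, had 24.6, 19.1, 35.5, 44.4 and 34.0 CPM in knockdown libraries 1 to 5 and 8.40, 9.01, 9.01, 8.75 and 10.6 CPM in control libraries 1 to 5. Every knockdown library was above every control, with libraries 1 and 2 the lowest of the 5. Its log2 fold change was 1.78 ± 0.197 (SE, edgeR adjusted p = 4.1e-06). ORC6, the smallest subunit of the origin recognition complex and one that also acts in cytokinesis, had 34.5, 30.9, 39.7, 44.0 and 38.9 CPM in knockdown and 19.8, 19.7, 17.7, 19.4 and 18.1 CPM in control libraries. It rose 1.98-fold (log2 fold change 0.99 ± 0.101, edgeR adjusted p = 2.1e-06), again without overlap.

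The other subunits of the origin recognition complex did not follow ORC6. ORC5 had 5.25, 6.80, 5.57, 4.15 and 5.61 CPM in knockdown and 13.6, 13.0, 13.0, 13.8 and 13.5 CPM in control libraries. The controls lay within 1 CPM of each other and the knockdown libraries were all far below them (2.44-fold lower, log2 fold change -1.29 ± 0.121, edgeR adjusted p = 1.1e-06). ORC2 had 7.77, 10.3, 5.82, 5.39 and 5.86 CPM in knockdown and 14.2, 16.4, 14.5, 15.1 and 17.2 CPM in control libraries, 2.19-fold lower with no overlap. ORC1, the subunit that cycles with the cell cycle and is degraded after S phase begins, averaged 3.57 ± 0.405 CPM in knockdown and 5.64 ± 0.601 CPM in control libraries (SD, n = 5 each) and was 1.58-fold lower. ORC3 (log2 fold change -0.17) and ORC4 (0.06) did not pass. ORC4 is an instance of a gene graded between knockdown libraries, with 35.4 and 36.3 CPM in libraries 1 and 2 and 26.2 to 26.8 CPM in the other three, against 28.0 to 30.9 CPM in the controls. Without knockdown library 2 its value was -0.02, without libraries 1 and 2 it was -0.14, and upper-quartile scaling gave 0.25 and a call. ORC3 passed as lower without knockdown library 2 (-0.25) and turned to 0.02 with upper-quartile scaling. CDC6, the ATPase that recruits the MCM ring with CDT1, averaged 16.4 ± 1.32 CPM in knockdown and 20.1 ± 3.31 CPM in control libraries, and its groups overlapped. Its log2 fold change of -0.30 ± 0.119 passed narrowly (edgeR adjusted p = 0.035) and did not pass when control library 2, 4 or 5 or knockdown library 1, 3 or 5 was left out (-0.25 to -0.31), nor with upper-quartile scaling (-0.10).

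Among assemblies of 3 or more subunits the MCM ring spanned the narrowest range of change, from -0.82 to 0.25 in log2 fold change. Among MCM2 to MCM7, MCM5 and MCM6 fell and the other four did not pass. MCM5 had 18.9, 16.2, 15.5, 17.1 and 18.3 CPM in knockdown and 26.8, 28.6, 28.7, 30.6 and 37.3 CPM in control libraries, 1.77-fold lower with no overlap (log2 fold change -0.82 ± 0.104, edgeR adjusted p = 1.3e-05). MCM6 had 28.9, 30.3, 27.9, 29.1 and 28.2 CPM in knockdown and 33.7, 38.5, 33.1, 40.8 and 46.6 CPM in control libraries. It was 1.33-fold lower, a call that upper-quartile scaling did not make (-0.22). MCM7, whose introns hold the microRNA cluster with MIR93, had 89.1, 81.7, 107, 115 and 99.3 CPM in knockdown and 72.3, 75.4, 86.2, 86.2 and 93.5 CPM in control libraries. These ranges overlapped, and its log2 fold change of 0.25 ± 0.110 just missed the threshold (edgeR adjusted p = 0.053). It passed without knockdown library 1 (0.29) or 2 (0.30), without control library 5 (0.27) and with upper-quartile scaling (0.45). MCM2 (0.17), MCM3 (-0.15) and MCM4 (0.03) had overlapping groups. MCM2 passed as higher with upper-quartile scaling (0.38), which turned MCM3 to 0.05. MCM3 passed as lower without knockdown libraries 1 and 2 (-0.28). MCM4 changed sign without knockdown library 2 (-0.06) and without control library 1, 3 or 4 (-0.04, -0.03 and -0.00).

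Of the factors that turn the ring into a helicase, CDC45, MCM10, GINS1 and GINS4 fell. GINS1 had 3.20, 5.59, 3.59, 3.12 and 2.84 CPM in knockdown and 12.9, 13.8, 13.6, 14.4 and 14.9 CPM in control libraries. Knockdown library 2 stood above the other four and still far below every control (log2 fold change -1.91 ± 0.170, edgeR adjusted p = 7.3e-07). MCM10, which helps start unwinding at the origin, had 3.84, 4.87, 3.96, 3.27 and 2.87 CPM in knockdown and 8.23, 9.83, 8.77, 10.3 and 12.7 CPM in control libraries, 2.64-fold lower. CDC45 averaged 2.38 ± 0.431 CPM in knockdown and 5.37 ± 1.27 CPM in control libraries (2.25-fold lower), and GINS4 averaged 3.10 ± 0.804 CPM in knockdown and 7.42 ± 1.85 CPM in control libraries (2.38-fold lower). None of these 4 overlapped between groups. GINS2, with 5.10 to 9.27 CPM in knockdown and 5.30 to 8.55 CPM in control libraries, and GINS3, with 6.11 to 6.83 CPM in knockdown and 4.44 to 7.31 CPM in control libraries, did not pass (log2 fold changes 0.24 and 0.31). GINS3 passed without control library 5 (0.43), GINS2 without knockdown libraries 1 and 2 (0.44), and both with upper-quartile scaling (0.51 for GINS3 and 0.45 for GINS2). The 4 GINS proteins form 1 complex, and their genes spanned -1.91 to 0.31 in log2 fold change.

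The polymerases held the largest falls. POLA1 (ENSG00000101868, chromosome X, 24693873 to 24996986, plus strand), the catalytic subunit of polymerase alpha, had 2.70, 4.57, 2.51, 1.67 and 3.18 CPM in knockdown and 12.4, 14.2, 16.6, 15.8 and 18.8 CPM in control libraries. All 5 knockdown libraries were below all controls, with a log2 fold change of -2.40 ± 0.224 (edgeR adjusted p = 1e-06). PRIM2, the large primase subunit, had 1.19, 2.13, 1.11, 1.06 and 1.29 CPM in knockdown and 5.19, 5.44, 6.21, 6.14 and 7.97 CPM in control libraries (-2.18 ± 0.208, edgeR adjusted p = 1.3e-06). POLA2, the regulatory subunit, had 4.99, 5.57, 3.90, 3.85 and 4.25 CPM in knockdown and 11.8, 13.3, 10.8, 13.2 and 15.7 CPM in control libraries, 2.86-fold lower. PRIM1, the catalytic primase subunit, had 2.53, 3.51, 2.40, 2.39 and 2.87 CPM in knockdown and 4.35, 3.65, 3.55, 4.55 and 5.56 CPM in control libraries. Its fall was smaller, 1.58-fold, and knockdown library 2 came close to the lowest control. All 4 subunits of polymerase alpha-primase therefore fell, unlike those of any other assembly of 3 or more subunits listed here. POLA1 spans 303 kb and PRIM2 332 kb, and of all tested coding genes over 60 kb 78.3% fell, against 47.0% of coding genes of any span.

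Polymerase epsilon and polymerase delta were each uneven. POLE, the catalytic subunit of the leading-strand polymerase, had 12.5, 15.1, 11.5, 10.1 and 11.8 CPM in knockdown and 29.0, 30.9, 35.8, 35.2 and 39.5 CPM in control libraries, 2.79-fold lower without overlap (log2 fold change -1.48 ± 0.122, edgeR adjusted p = 4.3e-07). Its partner POLE2 had 2.74, 2.51, 1.70, 1.73 and 2.55 CPM in knockdown and 2.09, 2.79, 2.18, 2.88 and 3.40 CPM in control libraries, overlapping throughout (-0.24, not passed). In polymerase delta, POLD3, an accessory subunit with a role in break-induced replication, went up. It had 27.6, 25.7, 23.7, 23.9 and 21.1 CPM in knockdown and 10.1, 11.9, 12.4, 12.3 and 14.7 CPM in control libraries (1.99-fold higher, log2 fold change 1.00 ± 0.111, edgeR adjusted p = 4.6e-06). The catalytic subunit POLD1 averaged 17.8 ± 2.32 CPM in knockdown and 24.8 ± 3.13 CPM in control libraries and was 1.40-fold lower with overlapping groups. The small accessory subunits outside the 43, named after their values were seen, went up, POLE3 5.29-fold to 315 ± 146 CPM in knockdown, against 59.4 ± 5.46 CPM in control libraries, POLE4 2.72-fold and POLD4 1.52-fold. POLD2 had 73.1, 75.5, 88.5, 96.6 and 88.4 CPM in knockdown and 84.6, 82.5, 73.2, 79.3 and 73.0 CPM in control libraries and did not pass (0.10). It passed as higher with upper-quartile scaling (0.31) and without knockdown libraries 1 and 2 (0.20).

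PCNA, the clamp that tethers polymerases to DNA, had 70.5, 61.9, 103, 126 and 102 CPM in knockdown and 32.3, 36.5, 38.2, 37.5 and 42.5 CPM in control libraries. Libraries 1 and 2 were the lowest of the knockdown and still above every control (log2 fold change 1.31 ± 0.175, edgeR adjusted p = 2.1e-05). Of the 5 subunits of replication factor C that load the clamp, 1 rose, 1 fell and 3 did not pass. RFC5 had 12.6, 11.1, 15.2, 19.9 and 16.1 CPM in knockdown and 7.28, 7.88, 7.25, 8.89 and 10.3 CPM in control libraries, 1.80-fold higher. RFC2 had 6.09, 7.17, 5.49, 4.85 and 5.39 CPM in knockdown and 12.1, 13.0, 12.0, 13.5 and 14.5 CPM in control libraries, 2.24-fold lower (log2 fold change -1.16 ± 0.119, edgeR adjusted p = 2.1e-06). Neither overlapped between groups. RFC1, the large subunit, averaged 48.5 ± 6.86 CPM in knockdown and 48.4 ± 3.27 CPM in control libraries, with knockdown libraries 1 and 2 at 55.9 and 56.0 CPM and the other three at 42.5 to 44.6 CPM. Without libraries 1 and 2 it passed as lower (-0.16), so the equal means rest on those 2 libraries. RFC3 had 7.99, 7.85, 8.44, 10.5 and 8.66 CPM in knockdown and 6.37, 7.60, 7.04, 8.78 and 9.49 CPM in control libraries (0.14, not passed, and 0.34 and passed with upper-quartile scaling). RFC4 had 7.84, 9.06, 6.30, 6.03 and 6.18 CPM in knockdown and 7.49, 10.9, 7.19, 9.59 and 9.62 CPM in control libraries (-0.34, edgeR adjusted p = 0.063). It passed as lower without control library 1 (-0.42) or 3 (-0.43) and without knockdown library 2 (-0.45).

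Ribonucleotide reductase makes deoxynucleotides from RRM1, the large subunit that is present throughout the cell cycle, and RRM2, the small subunit that is made in S phase and limits the enzyme. RRM1 had 58.0, 57.8, 55.4, 64.9 and 56.9 CPM in knockdown and 41.8, 42.5, 45.7, 48.4 and 49.1 CPM in control libraries. It rose 1.29-fold with no overlap (log2 fold change 0.36 ± 0.0793, edgeR adjusted p = 0.00099). RRM2 had 13.5, 14.9, 14.0, 12.7 and 13.5 CPM in knockdown and 27.3, 28.9, 32.9, 31.1 and 35.8 CPM in control libraries. The knockdown libraries lay within a narrow band, 2.28-fold below the controls (-1.19 ± 0.0933, edgeR adjusted p = 2.9e-07), and library 2 was not set apart as it was for GINS1 or PRIM2. TYMS, thymidylate synthase, had 73.8, 70.9, 108, 147 and 111 CPM in knockdown and 63.3, 62.2, 75.6, 69.2 and 68.3 CPM in control libraries, 1.51-fold higher with the groups overlapping at libraries 1 and 2 (edgeR adjusted p = 0.0084).

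At the fork CDCA7, a partner of the chromatin remodeller HELLS, had 22.3, 18.2, 27.4, 30.7 and 30.9 CPM in knockdown and 6.57, 8.92, 6.95, 7.92 and 9.72 CPM in control libraries. It rose without overlap (log2 fold change 1.69 ± 0.165, edgeR adjusted p = 1.5e-06). UHRF1, which brings DNMT1 to newly copied DNA, averaged 23.9 ± 1.23 CPM in knockdown and 18.9 ± 3.61 CPM in control libraries, and control library 5, at 25.3 CPM, stood above all knockdown libraries. Its rise of 1.26-fold did not pass when control library 1, 2, 3 or 4 was left out (log2 fold changes 0.26, 0.30, 0.28 and 0.29). The large subunit of the histone chaperone CAF-1, CHAF1A, had 10.7, 10.6, 8.39, 7.91 and 7.47 CPM in knockdown and 15.9, 17.9, 14.3, 17.0 and 22.6 CPM in control libraries, 1.94-fold lower. CHAF1B had 4.23, 4.19, 3.68, 5.21 and 4.35 CPM in knockdown and 4.10, 6.13, 5.07, 5.60 and 7.49 CPM in control libraries. Its log2 fold change of -0.39 ± 0.162 passed narrowly (edgeR adjusted p = 0.041) and did not pass with upper-quartile scaling (-0.19) or when control library 2, 4 or 5 or knockdown library 1, 3 or 5 was left out (-0.30 to -0.42). SLBP, which binds the stem-loop at the end of replication-dependent histone mRNA, had 8.70, 12.1, 7.58, 6.36 and 6.43 CPM in knockdown and 17.2, 18.7, 17.9, 18.4 and 18.4 CPM in control libraries. The controls were tightly grouped, and the knockdown libraries were 2.20-fold lower (-1.13 ± 0.160, edgeR adjusted p = 3.2e-05).

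The order of libraries within the groups recurred from gene to gene. Knockdown library 2 was the lowest of the 5 in 7 of the 9 members that rose and the highest in 16 of the 21 that fell, and library 4 was the highest in 6 of 9 and the lowest in 12 of 21. The median change of the rising members, as log2(CPM + 0.5) against the control mean, was 0.69 in library 2, 0.85 in library 1, 0.92 to 0.94 in libraries 5 and 3 and 1.20 in library 4. For the falling members it was -0.81 in library 2, -0.99 in library 1, -1.18 and -1.17 in libraries 5 and 3 and -1.35 in library 4. Members were sorted by calls on these same libraries, so the signs of these medians are no separate result. Over the whole count table both library 2 and library 1 stood apart from libraries 3 to 5. Against those libraries the chi-square over degrees of freedom was 133 to 207 for library 2 and 54.2 to 104 for library 1. It was 46.1 between libraries 1 and 2, and 4.13 to 11.7 among libraries 3 to 5. Among controls, library 5 was the highest in 35 of 43 members and library 1 the lowest in 28. Leaving out knockdown libraries 1 and 2 together gave 12 members higher, all 9 among them, and 23 lower, 19 of the 21 among them. That fit tested 22028 genes and called more of all genes in each direction than the fit with every library. The member counts were not tested against that change.

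Subunits of the same complex were compared directly by the ratio of their counts within each library, which does not depend on scaling. For each of 9 complexes the subunit with the longest gene among the members was set over that with the shortest, and the ratios were compared with exact permutation tests over the libraries, two-sided and adjusted over the 9. With 5 libraries a group the p cannot fall below 0.00794. The ratio of PRIM2 to PRIM1 was lower by 1.56 on the log2 scale, -1.04 ± 0.182 in knockdown and 0.52 ± 0.201 in control libraries (SD, n = 5, exact permutation adjusted p = 0.0102). RRM2 to RRM1 stood at -2.10 ± 0.156 in knockdown and -0.55 ± 0.0820 in control libraries, a difference of -1.55 at the same adjusted p. The differences for POLE to POLE2 (-1.23), ORC4 to ORC6 (-0.94), MCM6 to MCM7 (-0.65) and CHAF1A to CHAF1B (-0.59) also had that adjusted p, and none of these ratios overlapped between the groups. POLD3 to POLD2 went the other way, -1.79 ± 0.291 in knockdown and -2.69 ± 0.282 in control libraries, a difference of 0.90 with the same adjusted p and no overlap. GINS3 to GINS2 (0.10, exact permutation adjusted p = 0.659) and RFC3 to RFC4 (0.49, adjusted p = 0.0625) did not pass and overlapped. Without knockdown library 2 the GINS value was -0.04 and the RFC value was 0.62 and passed. Single genes did not overlap between groups in 67.5% of all tested genes. Longer coding genes had lower fold changes in general (rank correlation with span -0.599). Ratios of other long and short gene pairs were not tested, so separation is not shown to be particular to these complexes.

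**Figure D2:**
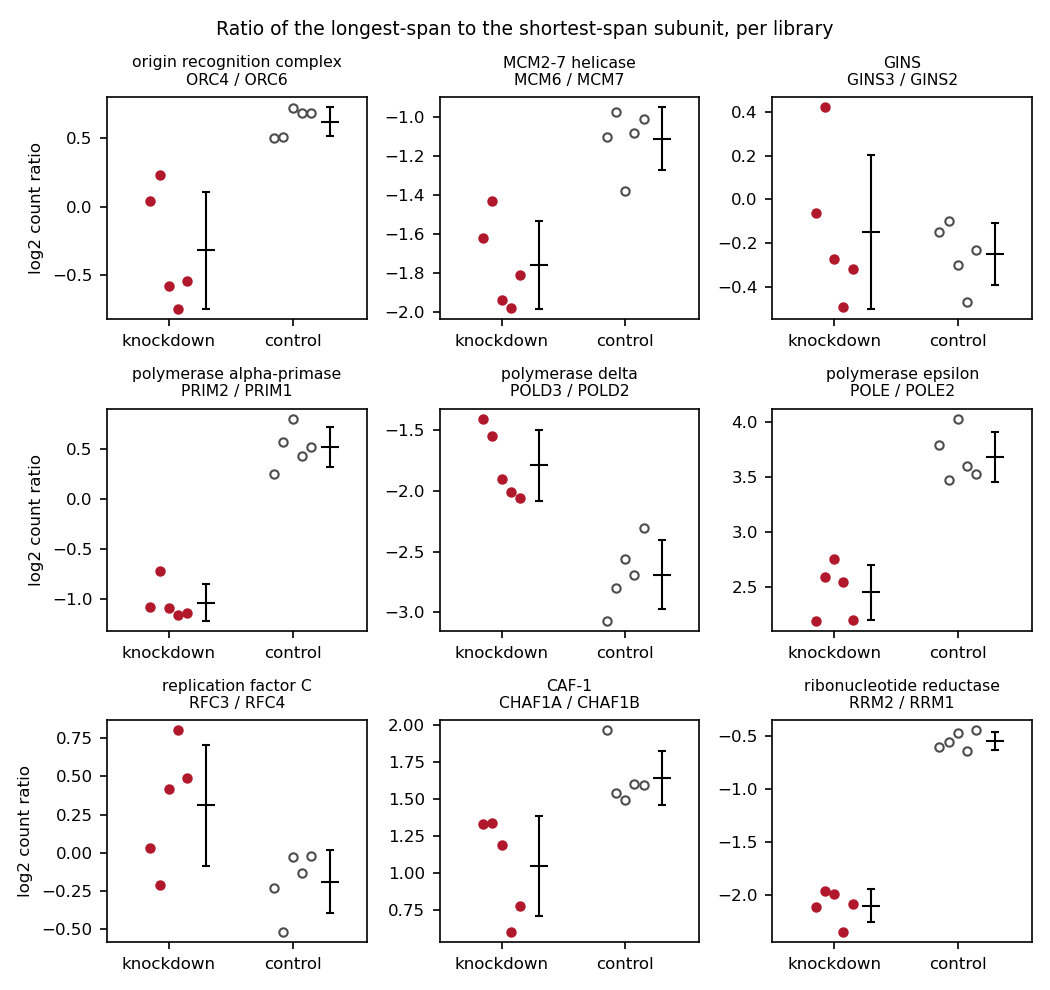
Each panel is a complex and each point a library, showing the log2 ratio of counts (0.5 added) of the longest-span to the shortest-span subunit, with mean ± SD beside the points (n = 5). The groups are apart in 7 of the 9 panels, lower in the knockdown in 6 and higher for polymerase delta, and overlap for GINS and replication factor C. Of all single genes tested 67.5% did not overlap between groups.

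Fold changes also varied with gene span, introns included. Of the 7 members spanning up to 15 kb 4 rose and 0 fell, against 63.6% higher and 16.3% lower for all tested coding genes of that span. Of the 12 from 15 to 30 kb 2 rose (16.7%) and 6 fell (50.0%), against 44.8% higher and 32.4% lower for coding genes of that span, and the medians of log2 fold change were -0.32 for the members and 0.17 for coding genes. Of the 12 from 30 to 60 kb 2 rose (16.7%) and 9 fell (75.0%), against 27.3% higher and 51.0% lower. Of the 12 over 60 kb 1 rose (8.33%) and 6 fell (50.0%), against 9.62% higher and 78.3% lower. The rank correlation of fold change with span was -0.425 across the 43 members and -0.599 across 14777 coding genes, which share the same libraries and are not independent.

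Several members departed from the trend on span. With a loess trend over all coding genes removed, the log2 fold change was 2.26 for POLD3 and 1.30 for CDCA7, and -1.58 for GINS4, -1.39 for GINS1, -1.34 for SLBP and -1.28 for RFC2. The members with the largest falls lay nearer to the trend of genes of their span, with detrended values of -0.76 for POLA1 and -0.48 for PRIM2. For some members the annotated span far exceeds that of the canonical transcript. RRM2 spans 8.68 kb by the canonical transcript in place of 91.0 kb, GINS3 13.7 kb in place of 111 kb, RFC3 19.4 kb in place of 148 kb and POLD3 50.5 kb in place of 175 kb. With that span the detrended values were -1.75 for RRM2, -0.01 for GINS3, 0.02 for RFC3 and 1.52 for POLD3. RRM2 was then the member farthest below the trend, followed by GINS1 (-1.54) and GINS4 (-1.49). By canonical span 7 members lay over 60 kb, of which 0 rose and 4 fell, against 6.46% higher and 82.6% lower for coding genes. The median log2 fold changes of that class were -1.29 for the members and -1.30 for coding genes. The rank correlation with canonical span was -0.497 across the members and -0.619 across coding genes. The longest and shortest subunits also changed in 3 complexes, and the differences were -2.20 for GINS1 to GINS2, -0.84 for RFC1 to RFC5 and 1.55 for RRM1 to RRM2, each with an exact permutation adjusted p of 0.00794 (added after the data were seen).

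**Figure D3:**
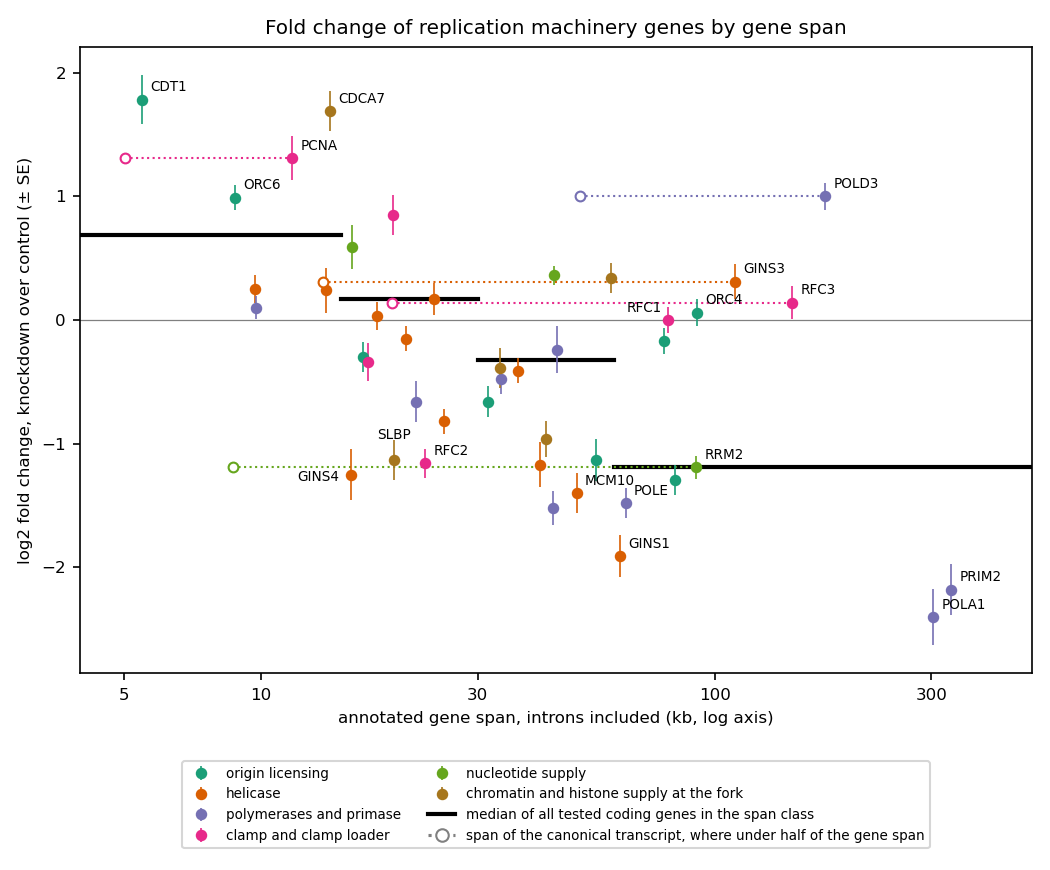
Each filled point is a gene, placed by its annotated span (kb, log axis) and its log2 fold change with SE, and coloured by role. Black bars are medians of all tested coding genes in 4 span classes and open points give the canonical span of RRM2, GINS3, RFC3, POLD3 and PCNA. POLD3 lies far above the bar of its class, and GINS4, SLBP and RFC2 far below theirs.

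Levels of different genes were set side by side only per length, as TPM, counts per kb of merged exons scaled to a library sum of 1e6. PCNA, at 184 ± 18.3 TPM, and TYMS, at 118 ± 14.2 TPM, were the most abundant in knockdown libraries, followed by MCM3 (60.7 ± 19.3 TPM) and MCM7 (56.8 ± 5.05 TPM), which did not differ beyond their spread. In control libraries TYMS (95.7 ± 12.0 TPM) and PCNA (91.5 ± 15.3 TPM) did not differ beyond their spread and MCM3 (77.5 ± 13.0 TPM) and MCM7 (57.2 ± 9.87 TPM) came next (SD, n = 5 each). The least abundant in knockdown libraries were POLA1 (0.573 ± 0.301 TPM), PRIM2 (0.726 ± 0.365 TPM) and POLA2 (1.13 ± 0.417 TPM), and in control libraries POLE2 (3.12 ± 0.822 TPM), POLA1 (3.44 ± 0.769 TPM) and GINS3 (3.57 ± 1.04 TPM), neighbours that did not differ beyond their spread in either group.

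The spread of levels within complexes was wider in the knockdown for some complexes and not for others. The most abundant subunit of the origin recognition complex exceeded the least abundant 7.19 to 11.0 times in knockdown and 3.03 to 3.99 times in control libraries. For MCM2 to MCM7 this ratio was 7.96 to 10.3 in knockdown and 5.01 to 5.65 in control libraries, for polymerase alpha-primase 3.61 to 6.75 in knockdown and 1.21 to 1.65 in control libraries, and for ribonucleotide reductase 8.39 to 11.0 in knockdown and 2.96 to 3.37 in control libraries. It was lower in the knockdown for CHAF1A and CHAF1B, 1.79 to 2.98 in knockdown and 3.32 to 4.59 in control libraries. For polymerase epsilon the answer depended on which subunits were counted. Between POLE and POLE2 alone the ratio was 1.09 to 1.61 in knockdown and 2.64 to 3.91 in control libraries, and over all 4 subunits, with POLE3 the most and POLE2 the least abundant in both groups, it was 64.6 to 324 in knockdown and 19.1 to 35.1 in control libraries.

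**Figure D4:**
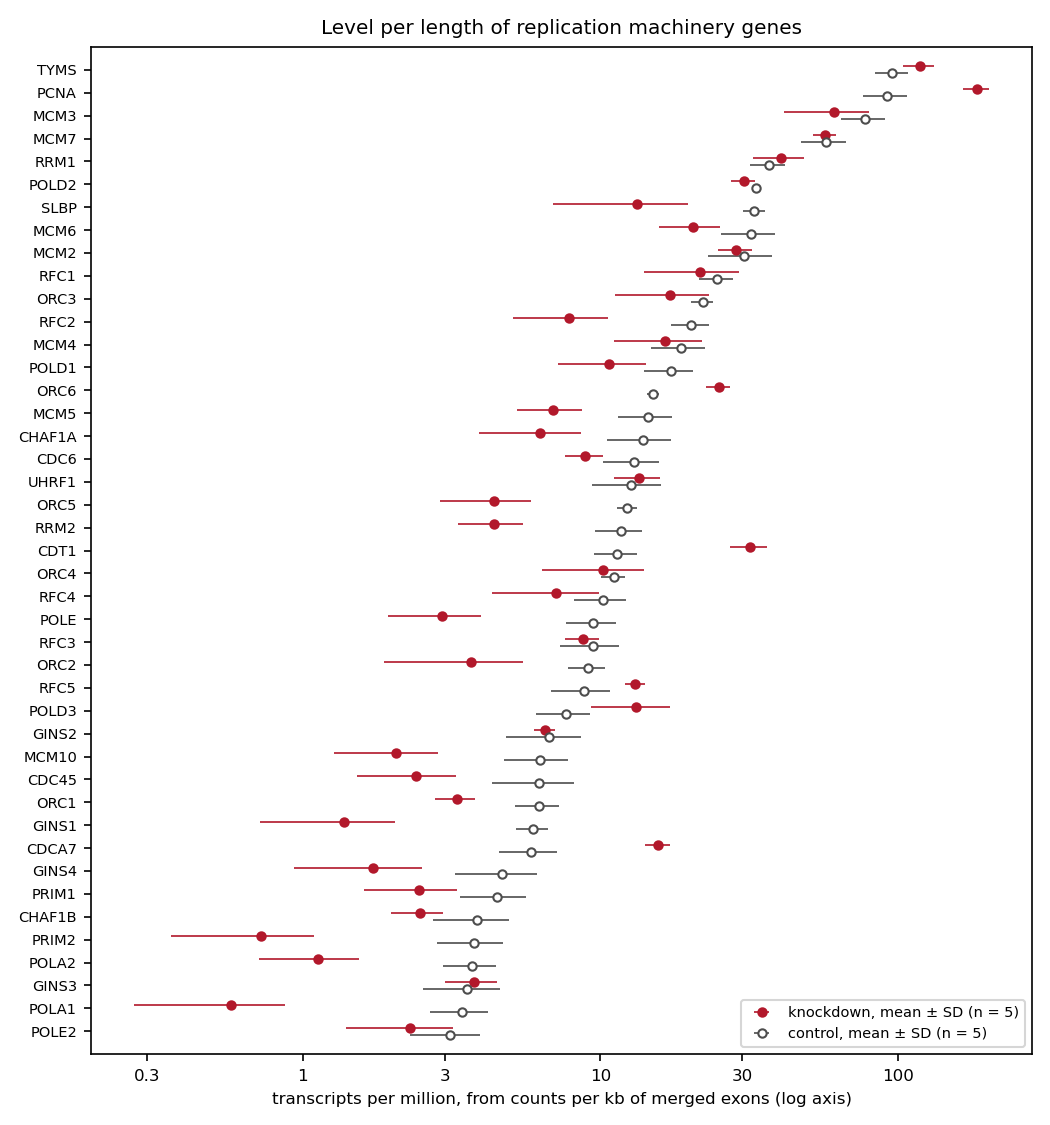
Mean level per length of each gene (TPM, log axis) with SD over 5 libraries, knockdown filled and control open, in the order of the control means. Control means run from 3.12 TPM for POLE2 to 95.7 TPM for TYMS, and knockdown means from 0.573 TPM for POLA1 to 184 TPM for PCNA.

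Genes of related processes, outside the 43, were summarised in 7 lists. Of their 85 genes 39 rose (45.9%) and 27 fell (31.8%), and their median log2 fold change was 0.24. Of all tested genes 40.1% rose and 39.6% fell, and of tested protein-coding genes 34.7% rose and 47.0% fell. The counts of single lists given below were not tested against these shares. Of 13 genes of initiation and its control 7 rose and 4 fell. DONSON, which helps bring GINS to the MCM ring, rose 2.23-fold and MCM9 2.02-fold, while MTBP, the partner of TICRR in helicase assembly, fell 2.73-fold and MCM8 2.53-fold. Of 24 genes of the fork, ligation and unwinding 9 rose and 9 fell. RNASEH2C, a subunit of the RNase H2 that removes ribonucleotides from DNA, rose 2.54-fold and CHTF8 1.70-fold, while the topoisomerase gene TOP1 fell 2.54-fold and RPA1, the large subunit of the protein that coats exposed strands, 1.87-fold. Of 7 chromatin replication genes 4 rose and 3 fell. Both subunits of the histone chaperone FACT rose, SSRP1 2.54-fold and SUPT16H 2.21-fold, while HELLS fell 4.10-fold and DNMT1, the maintenance DNA methyltransferase, 2.71-fold. CDCA7 and its partner HELLS thus had changes of opposite sign, as did UHRF1 and DNMT1. The rise of UHRF1 was small (1.26-fold), its groups overlapped, and its call was lost without control library 1, 2, 3 or 4.

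Of 8 genes of nucleotide synthesis 4 rose and 1 fell. DCK, the salvage kinase for deoxycytidine, rose 3.98-fold to 67.1 ± 10.8 CPM in knockdown, against 16.8 ± 1.36 CPM in control libraries, and RRM2B, the p53-inducible small subunit of ribonucleotide reductase, rose 1.57-fold. SAMHD1, which breaks down deoxynucleotides, fell 2.20-fold. RRM2B averaged 97.1 ± 4.60 CPM in knockdown and 61.7 ± 4.28 CPM in control libraries, so it went opposite to RRM2. Of 10 replication checkpoint genes 4 rose, among them CHEK1 (2.66-fold) and RAD1 (2.27-fold), and 3 fell, among them RAD17 (1.70-fold) and the kinase gene ATR (log2 fold change -0.58).

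Of 13 E2F and retinoblastoma family genes 3 rose and 6 fell. E2F1, an activator of replication genes, rose 2.07-fold to 17.2 ± 5.25 CPM in knockdown, against 8.29 ± 1.71 CPM in control libraries, and E2F5 rose 1.64-fold. TFDP1, the partner with which E2F proteins bind DNA, fell 4.26-fold to 17.9 ± 2.34 CPM in knockdown, against 76.2 ± 3.31 CPM in control libraries, and RB1, the retinoblastoma gene, fell 3.22-fold. RB1 spans 296 kb, and its fall lay on the trend of genes of that span. With the span trend removed, log2 fold changes were -0.06 for RB1, -1.62 for TFDP1, 0.54 for E2F1 and 0.98 for E2F5. Of 10 proliferation markers 8 rose and 1 fell, and their log2 fold changes had a median of 0.69 (0.40 with the span trend removed). Their median span was 12.5 kb, in the class where 63.6% of coding genes rose. CDK2 rose 3.50-fold, CCNB1 2.54-fold and MKI67, added after its value was seen, 1.54-fold, while AURKB fell 2.16-fold.

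Counts of some members are uncertain because they share exon sequence with another gene and the sources used here do not give the strand setting of the counting. The share of exon sequence overlapping a gene on the opposite strand was 39.9% for TYMS (ENOSF1), 23.6% for MCM2 and 21.0% for GINS4 (both long non-coding genes), and 16.8% of POLA2 and 10.9% of PRIM1 overlapped another coding gene on the same strand.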

How the data were processed

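Raw read counts per gene were deposited for 10 libraries, 5 a group, and were matched to samples by title. The authors used Trim Galore 0.65 for trimming, STAR 2.7.0 for alignment to GRCh38 with GENCODE release 38, and HTSeq for counting, per the submitters' processing notes and design text. Libraries were stranded total RNA, per the labels' protocols. Names, spans and exon lengths came from GENCODE release 44 by identifier (61481 of 78932 matched, and those not matched held 0.25% to 0.408% of a library). With 17451 identifiers not matched, the annotation counted may differ from the release stated.

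Counts were scaled by TMM factors and tested with edgeR 4.0.16 (filterByExpr, robust quasi-likelihood F test, Benjamini-Hochberg over 21033 genes, threshold 0.05) in R 4.3.3, and the test was checked on simulated data. SE is the log2 fold change over the square root of F. TPM was computed from counts per kb of merged exons of all transcripts, so genes with many unused exons read low. Ratios used counts plus 0.5. Depths were 32.9 to 45.1 in units of 1e6 counts. Every pair of replicates differed by more than counting noise (chi-square over degrees of freedom of at least 4.13).

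The members, lists and tests were chosen with earlier results of these data known. Full values were given, by rule, for up to 2 rising and 2 falling members of each role with the smallest p and no overlap between groups and for the subunits in the ratios. Other members shown in full were added after their values were seen. Of each other list up to 2 rising and 2 falling genes with the smallest p were named. Alternatives were DESeq2 1.42.0 and its size factors, upper-quartile factors, limma-voom (limma 3.58.1), other filters, removal of mitochondrial genes, a block for replicate number, libraries left out, and span trends removed. Figures used matplotlib 3.10.9.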

Additional observations from a re-analysis of the deposited data

Results flagged for a closer look

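In 6 of 86 groups of 5 libraries 1 library lay far from the other four by Dixon's test at 95%, where chance alone flags about 1 in 20. Control library 5 was high for CDT1 (10.6 CPM, the others 8.40 to 9.01 CPM), GINS2 (8.55 CPM, the others 5.30 to 6.14 CPM) and UHRF1 (25.3 CPM, the others 16.3 to 18.4 CPM). Knockdown library 2 was high for GINS1 (5.59 CPM, the others 2.84 to 3.59 CPM) and PRIM2 (2.13 CPM, the others 1.06 to 1.29 CPM), and knockdown library 4 for RRM1 (64.9 CPM, the others 55.4 to 58.0 CPM).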

How the results depend on the processing

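The counts of members that rose or fell stayed within 1.5 times of 9 and 21 under every alternative run except upper-quartile scaling, with 16 higher and 18 lower and a median of -0.10 in place of -0.30. All 9 rising and 18 of the 21 falling members kept their calls there. Over all tested genes upper-quartile scaling likewise called more higher and fewer lower. The median of the other lists, 0.24, was 0.43 with upper-quartile scaling, 0.30 without knockdown libraries 1 and 2 and 0.32 with the span trend removed, and the cause was not tested beyond the shift of all genes by 0.20 with upper-quartile scaling. Signs changed for ORC3 (0.02) and MCM3 (0.05) with upper-quartile scaling, ORC4 (-0.14 without knockdown libraries 1 and 2, and -0.02 to 0.12 with 1 library left out), and MCM4 (-0.01 with no filter, -0.11 without knockdown libraries 1 and 2, and -0.06 to 0.09 with 1 library left out) and RFC1 (-0.00 with limma-voom, -0.03 with no filter, -0.01 with the block, -0.16 without knockdown libraries 1 and 2, and -0.06 to 0.06 with 1 library left out). Removing the span trend turned MCM7 (-0.31), POLD2 (-0.45), GINS2 (-0.16), MCM4 (-0.23), POLE2 (0.10) and ORC3 (0.49). None of these members had passed the test.

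Same-numbered libraries did not deviate together (correlations of -0.17 to 0.221, 3 of 10 libraries correlating best with their own number), so the numbers were not taken to pair them. With the replicate number as a block 10 members rose and 19 fell, and fewer of all tested genes were called in each direction. The exact sign-flip test on the paired ratios cannot give a p below 0.0625 and so called none, with unchanged differences of -0.94 for the origin recognition complex, -0.65 for MCM2 to MCM7, -1.56 for polymerase alpha-primase, 0.90 for polymerase delta, -1.23 for polymerase epsilon, -0.59 for CAF-1 and -1.55 for ribonucleotide reductase. With 1 library left out the GINS difference ranged from -0.04 to 0.19 and that of replication factor C from 0.37 to 0.62, and without knockdown libraries 1 and 2 they were -0.12 and 0.75, the second passing. By canonical span, where other subunits are compared, GINS gave -2.20, replication factor C -0.84 and ribonucleotide reductase 1.55. Members below about 3 CPM (PRIM1, PRIM2, POLA1, POLE2 and CDC45 in the knockdown) rest on the fewest counts, 271 over the 5 knockdown libraries for PRIM2.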
